A study of Homo sapiens with 3 samples.

Results

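The 41 genes described here encode the glucose and lactate transporters, the enzymes of glycolysis and of the pentose phosphate pathway, the regulators of both, the hypoxia-inducible factors (HIFs) with their oxygen sensors, and 8 hypoxia targets outside glycolysis. They and the other gene lists below were chosen by name and function, with earlier results of these data known. Their shares beside those of all tested genes are therefore descriptions and not tests. All 41 were found by Entrez identifier among the 18331 genes listed in at least 1 library. Each was listed in all 3 libraries, and all 41 passed the filter on low counts, as did 14016 genes in all. The cells were PC-3, a human prostate cancer line that grows without androgen. They were infected with lentivirus carrying a short hairpin RNA (shRNA) and collected on day 7, with 2 libraries labelled KMT2D shRNA and 1 labelled control shRNA. The labels state neither whether the libraries came from separate cultures nor whether the numbers 1 and 2 stand for different hairpins, so the p-values below measure only the spread between these libraries. KMT2D is a methyltransferase that places histone H3 lysine 4 methylation at enhancers.

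Glycolysis splits glucose into pyruvate, and tumour cells commonly reduce that pyruvate to lactate and export it even in the presence of oxygen. The pentose phosphate pathway branches off at glucose 6-phosphate and supplies ribose and NADPH. Under low oxygen the prolyl hydroxylases that mark HIF alpha subunits for destruction are inactive, and the stabilised HIF raises transcription of most glycolytic genes together with genes of angiogenesis, pH control and mitophagy.

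Several facts of the libraries bear on every fold change below. Total expected counts were 5157482 and 5123794 in KMT2D shRNA libraries 1 and 2 and 5559449 in the control. KMT2D itself was not lower in the libraries labelled KMT2D shRNA, at 107 and 138 CPM (counts scaled to a common library size by edgeR's TMM method) against 100.1 in the control (log2 fold change 0.29, edgeR adjusted p = 0.227). The control library stood apart in its interferon response genes: their summed level was 18948 CPM there against 1029 and 1017 CPM. In the labelled libraries 24 of 24 fell (edgeR adjusted p under 0.05), against 14.5% of all tested genes. That list was chosen with this state of the control known. Fold changes also rose with transcript length, from a median of -0.49 in the shortest to 0.59 in the longest of 10 equal bins of genes (Spearman rho of 0.456 and 0.460 in libraries 1 and 2, which share the control). With that trend removed, KMT2D had a log2 fold change of -0.61 (edgeR adjusted p = 0.00977). Of 6 epithelial markers KRT7, KRT8, KRT18 and KRT19 fell, where 14.5% of all tested genes fell. With the length trend removed only KRT7 and KRT18 fell, where 9.71% of all tested genes did. EPCAM was lower and CDH1 higher in both labelled libraries, neither passing (log2 fold changes of -0.45 and 0.51). The retinal markers summed to 20.9 to 28.5 CPM, although the series text calls the profiles retinal. The part that the interferon state of the control plays in the changes of the 41 genes was not tested.

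HIF binds the core sequences ACGTG and GCGTG, and the promoter stretches below show how the core sits in members of each outcome. BNIP3, PFKFB4, SLC16A3 and PGK1 fell, HIF1A rose and LDHA did not pass the test. Each stretch lies within the 250 bases before a RefSeq transcript start (GRCh38.p14), outside exons annotated by GENCODE, and is written 5′ to 3′ on the gene's strand with the core, on either strand, in capitals.
BNIP3, chr10:131982014-131982094, minus strand: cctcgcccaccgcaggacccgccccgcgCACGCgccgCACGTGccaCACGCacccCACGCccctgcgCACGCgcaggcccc
PFKFB4, chr3:48556924-48556982, minus strand: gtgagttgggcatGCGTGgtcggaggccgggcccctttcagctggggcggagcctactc
SLC16A3, chr17:82228933-82229031, plus strand: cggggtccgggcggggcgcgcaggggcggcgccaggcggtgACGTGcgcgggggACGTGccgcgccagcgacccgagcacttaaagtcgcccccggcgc
PGK1, chrX:78104004-78104103, plus strand: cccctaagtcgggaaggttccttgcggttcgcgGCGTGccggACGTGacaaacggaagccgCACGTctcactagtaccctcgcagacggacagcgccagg
HIF1A, chr14:61695263-61695362, plus strand: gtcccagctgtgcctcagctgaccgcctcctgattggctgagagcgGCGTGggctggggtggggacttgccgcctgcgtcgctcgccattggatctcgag
LDHA, chr11:18394331-18394387, plus strand: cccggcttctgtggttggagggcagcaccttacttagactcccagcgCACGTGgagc
BNIP3 packed 5 capital blocks into 81 bases, PGK1 held 3 and SLC16A3 held 2. PFKFB4, HIF1A and LDHA each showed 1 block in their stretch. The stretches are cut at annotated exons and at 100 bases, so their block counts cannot be compared between genes. With overlaps counted, the full 250-base windows around them held 6 cores in BNIP3, 5 in LDHA, 3 in PGK1 and 2 in SLC16A3. Those of PFKFB4 and HIF1A held 1 each. A window of HK2 held 6 and that of ALDOC 5, and neither gene passed. The core was thus present in members that fell, in a member that rose and in a member that did not pass.

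Of the 41 genes, 14 fell and 4 rose in the libraries labelled KMT2D shRNA at an adjusted p under 0.05 (edgeR's quasi-likelihood test), and 23 did not pass. The share that fell was 34.1%, against 14.5% of all tested genes, and the share that rose was 9.76%, against 16.5%. Counted without a test, 28 members (68.3%) were lower than the control in both labelled libraries, against 42.8% of all tested genes, and 9 (22%) were higher in both, against 41.5%. The median log2 fold change of the members was -0.22, and that of all tested genes was -0.006. The members took 2.66% of all counts in library 1 (95% Wilson interval 2.65% to 2.67%), 2.61% in library 2 (2.59% to 2.62%) and 3.26% in the control (3.25% to 3.28%), where intervals cover counting error only.

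**Figure D1:**
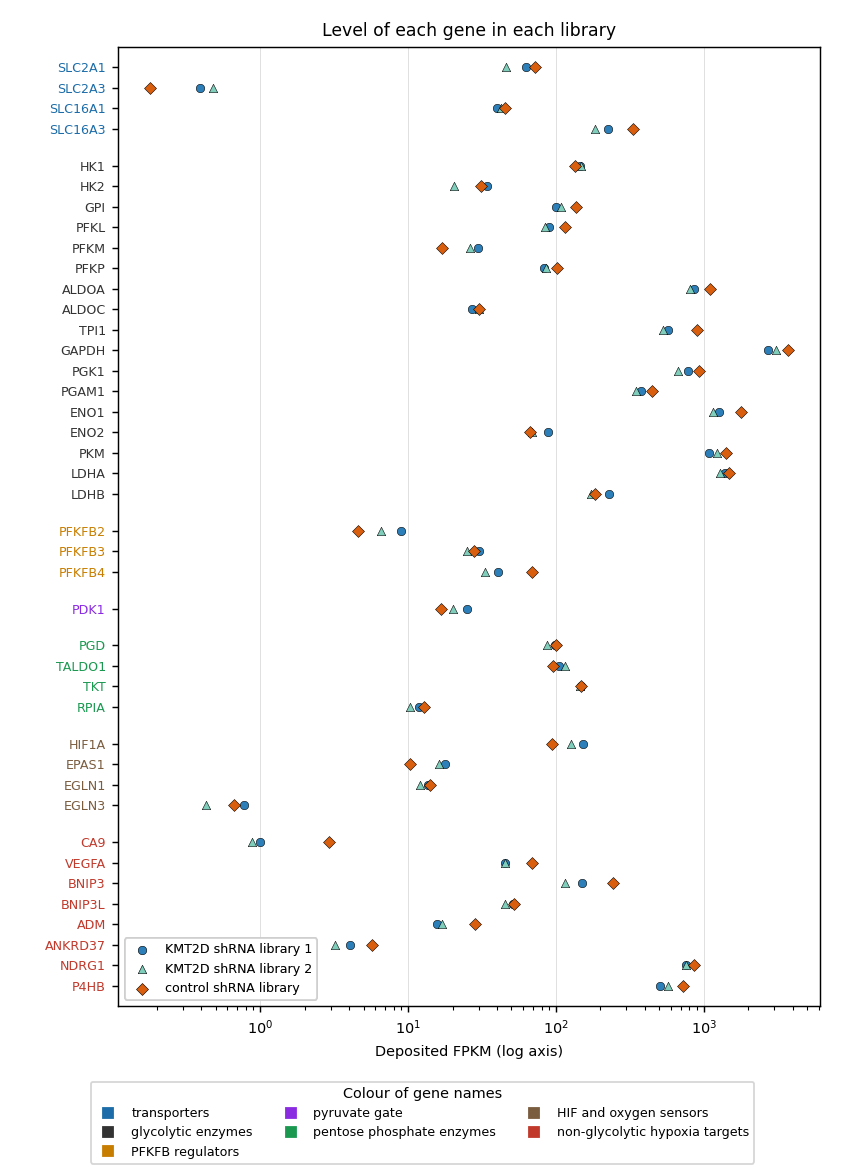
Level of each of the 41 genes (deposited FPKM, scaled by transcript length and library total, log axis) in KMT2D shRNA library 1 (circles), library 2 (triangles) and the control library (diamonds), with gene names coloured by class. Each point is 1 library; the control sits to the right of both labelled libraries for most glycolytic enzymes and for all 8 hypoxia targets, and to their left for PFKM, PFKFB2, HIF1A and EPAS1.

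The fold changes with the length trend removed gave another set of calls. In that fit 9 members fell (22%, against 9.71% of all tested genes) and 3 rose (7.32%, against 9.65%). The 6 genes that fell in both fits were BNIP3, ENO1, GPI, PFKFB4, SLC16A3 and VEGFA, and PFKM alone rose in both. With length and GC trends removed together, BNIP3, EGLN1, GPI, PFKFB4 and VEGFA fell and PFKM and TALDO1 rose. DESeq2, which gave an adjusted p for 37 members, called BNIP3, ENO1, PFKFB4, SLC16A3 and TPI1 lower (4.24% of all genes with an adjusted p fell) and no member higher (6.91% rose), while 13 members had an unadjusted p under 0.05.

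**Figure D2:**
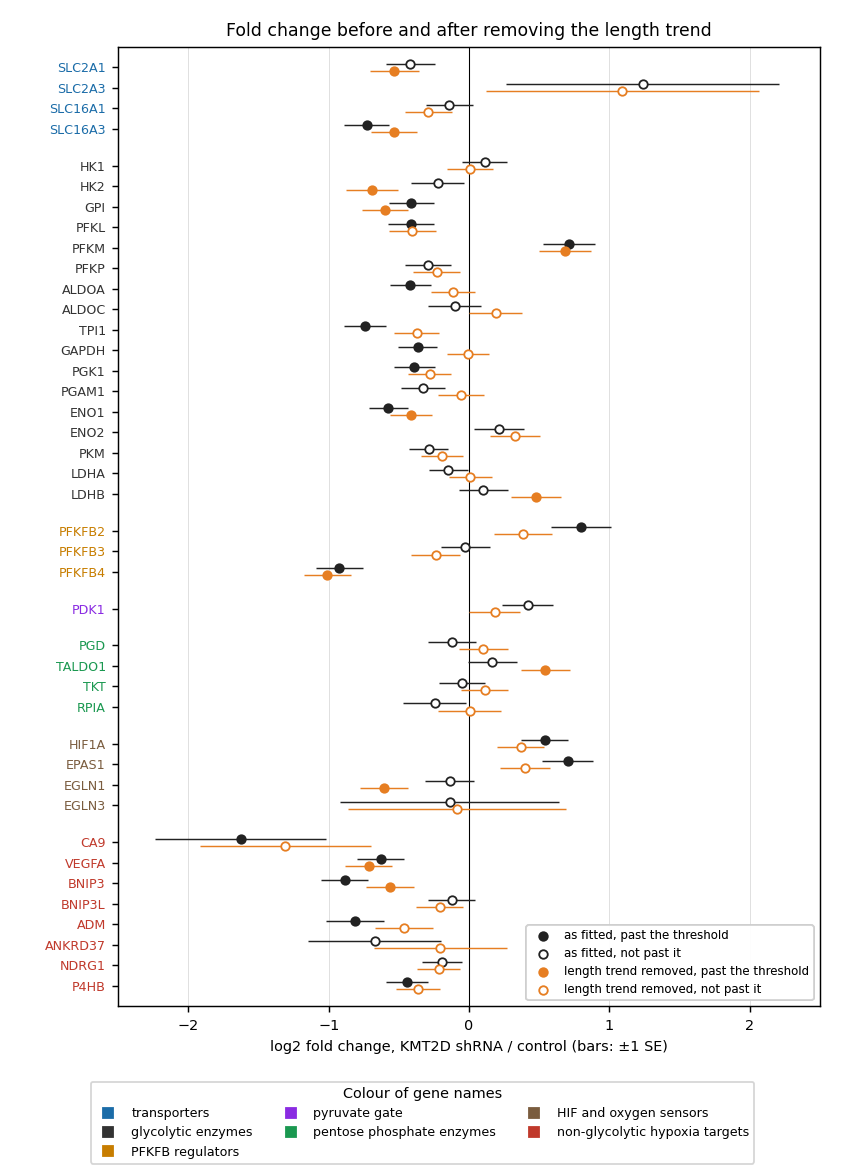
Log2 fold change of each gene, libraries labelled KMT2D shRNA over control, as fitted by edgeR (black) and with the length trend removed (orange), with bars of 1 standard error and filled points past an adjusted p of 0.05. PFKFB4, BNIP3, VEGFA, SLC16A3, GPI and ENO1 are filled on the left in both fits and PFKM on the right, whereas GAPDH moves from -0.37 to -0.0074.

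Among the transporters, the lactate exporter SLC16A3 (MCT4) fell and the other 3 did not pass. SLC16A3 stood at 456 and 382 CPM in libraries 1 and 2 and at 695 CPM in the control. Both labelled libraries were below the control, and the log2 fold change was -0.73 (SE 0.16, edgeR adjusted p = 0.000411). The glucose transporter SLC2A1 (GLUT1) measured 231, 173 and 270 CPM, in the same order, with a log2 fold change of -0.42 that did not pass (edgeR adjusted p = 0.0603) but did with the length trend removed (-0.53, adjusted p = 0.023). SLC16A1 (MCT1), a monocarboxylate transporter of broader expression, was nearer the control at 157, 171 and 180.4 CPM. SLC2A3 (GLUT3), a high-affinity glucose transporter, had only 8, 10 and 4 counts and did not pass (log2 fold change 1.24, SE 0.97, edgeR adjusted p = 0.353).

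Of the 17 glycolytic enzymes 7 fell, 1 rose and 9 did not pass. The shares were 41.2% and 5.88%, against 14.5% and 16.5% of all tested genes. Their median log2 fold change was -0.29, with -0.31 in library 1 and -0.27 in library 2. With the length trend removed 3 fell and 2 rose, and the median was -0.11. Those shares were 17.6% and 11.8%, against 9.71% and 9.65% of all tested genes. Together these enzymes held 1.95% and 1.93% of counts in the labelled libraries (95% Wilson intervals 1.94% to 1.96% and 1.91% to 1.94%) and 2.44% in the control (2.43% to 2.45%).

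Of the first steps of the pathway only GPI passed, and it fell. Hexokinases trap glucose as glucose 6-phosphate, and neither passed: HK1 measured 525, 543 and 494 CPM in library 1, library 2 and the control. HK2, the inducible form, measured 243, 148 and 228 CPM, so library 1 was above the control and library 2 below it. The ratio of library 2 to library 1 for HK2 was 0.608 (95% interval from counts 0.555 to 0.666). With the length trend removed, HK2, whose transcript is 7109 bases long, passed with a log2 fold change of -0.69 (edgeR adjusted p = 0.00478). GPI, which isomerises glucose 6-phosphate to fructose 6-phosphate, fell from 590 CPM in the control to 422 and 464 CPM (log2 fold change -0.41, SE 0.16, edgeR adjusted p = 0.0444). That change was larger with the length trend removed, at -0.60 (adjusted p = 0.00569).

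Phosphofructokinase, the committed step, showed opposite changes among its isoforms. The muscle-type gene PFKM rose from 54.1 CPM in the control to 93.7 and 84.0 CPM (log2 fold change 0.71, SE 0.18, edgeR adjusted p = 0.00237), and it rose in the fit without the length trend as well (0.68, adjusted p = 0.00519). PFKL, the liver-type gene, measured 262 and 250.3 CPM against 341 CPM (log2 fold change -0.41, SE 0.16, edgeR adjusted p = 0.0484). It passed under 0 of the 11 alternative settings. PFKP, the platelet-type gene, was 219 and 231 CPM against 276 CPM and did not pass. In deposited FPKM, which allow levels of different genes to be compared, PFKM made up 7.22% of the summed phosphofructokinase level in the control and 14.7% and 13.3% in libraries 1 and 2.

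Enzymes of the middle of the pathway were lower in both labelled libraries. ALDOA, the main aldolase, which cleaves fructose 1,6-bisphosphate, measured 1363 and 1323 CPM against 1795 CPM in the control (log2 fold change -0.42, SE 0.15, edgeR adjusted p = 0.0258). TPI1, which interconverts the triose phosphates, had the largest drop among the 17 enzymes in this fit, from 1240.2 CPM to 765 and 720.5 CPM (log2 fold change -0.74, SE 0.15, edgeR adjusted p = 0.000166). GAPDH, which oxidises glyceraldehyde 3-phosphate and is often used as a reference gene, measured 3745, 4331 and 5205 CPM in library 1, library 2 and the control (log2 fold change -0.37, SE 0.14, edgeR adjusted p = 0.036). All 3 genes have short transcripts of 1618, 1369 and 1401 bases, and with the length trend removed their log2 fold changes were -0.11, -0.37 (adjusted p = 0.0936) and -0.0074, none past the threshold. ALDOC, the minor aldolase, was at 44.3, 50.5 and 50.9 CPM and did not pass.

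At the ATP-producing end of the pathway PGK1 and ENO1 fell. PGK1, the first ATP-producing enzyme, measured 1872 and 1663 CPM against 2316 CPM in the control (log2 fold change -0.39, SE 0.15, edgeR adjusted p = 0.0362), and with the length trend removed -0.28, which did not pass. ENO1, which forms phosphoenolpyruvate, measured 2752 and 2579 CPM against 3969 CPM (log2 fold change -0.57, SE 0.14, edgeR adjusted p = 0.00113). ENO1 kept its call with the length trend removed, at -0.41 (adjusted p = 0.0427). Its neuronal-type paralog ENO2 was at 212, 168 and 164 CPM and did not pass, and PGAM1 and the pyruvate kinase gene PKM were lower in both labelled libraries without passing (log2 fold changes of -0.33 and -0.29). LDHA, the lactate dehydrogenase subunit that favours lactate, measured 3080.3, 2914 and 3319 CPM and did not pass (log2 fold change -0.15, edgeR adjusted p = 0.452). LDHB, the heart-type isoform, was at 293, 226 and 242 CPM, with the control between the labelled libraries, and it passed as higher only with the length trend removed (0.48, adjusted p = 0.0492).

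On the FPKM scale GAPDH was the most abundant member in every library, at 2742, 3096 and 3709 in library 1, library 2 and the control. ENO1, LDHA and PKM followed, all above 1000 in each library. SLC2A3, EGLN3 and CA9 were the 3 lowest, at no more than 2.9 FPKM in any library. GAPDH, ENO1, PGK1, LDHA, TPI1, ALDOA, PGAM1, PKM and BNIP3 have processed pseudogene copies in the genome, so reads may be split between them. Estimated counts were not whole in 9 members, among them ENO1, TPI1, PGAM1, GPI and HK2. GAPDH, PGK1, LDHA, ALDOA, PKM and BNIP3 had whole counts in every library. Of all genes listed in a library, 67.8% to 68% had whole counts. Whether reads were split was not tested.

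The 3 bifunctional PFKFB enzymes set the level of fructose 2,6-bisphosphate, the activator of phosphofructokinase, and they moved apart. PFKFB4, a HIF target, measured 142 and 117 CPM against 246 CPM in the control. Both labelled libraries lay well below the control. Its log2 fold change was -0.92 (SE 0.17, edgeR adjusted p = 3e-05), and it passed under 9 of 11 alternatives. PFKFB2, the heart-type enzyme, rose from 29.1 CPM to 58.3 and 42.8 CPM (log2 fold change 0.80, SE 0.21, edgeR adjusted p = 0.00294). Its transcript of 6347 bases lies where the length trend is high, and with that trend removed the value was 0.39 (adjusted p = 0.19). PFKFB3, the inducible form, measured 131, 111 and 124 CPM, with the control between the labelled libraries. PDK1, the kinase that shuts pyruvate out of the mitochondrial dehydrogenase complex and a known HIF target, was higher in both labelled libraries at 115 and 94.0 CPM against 78.1 CPM but did not pass (log2 fold change 0.42, edgeR adjusted p = 0.0744).

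**Figure D3:**
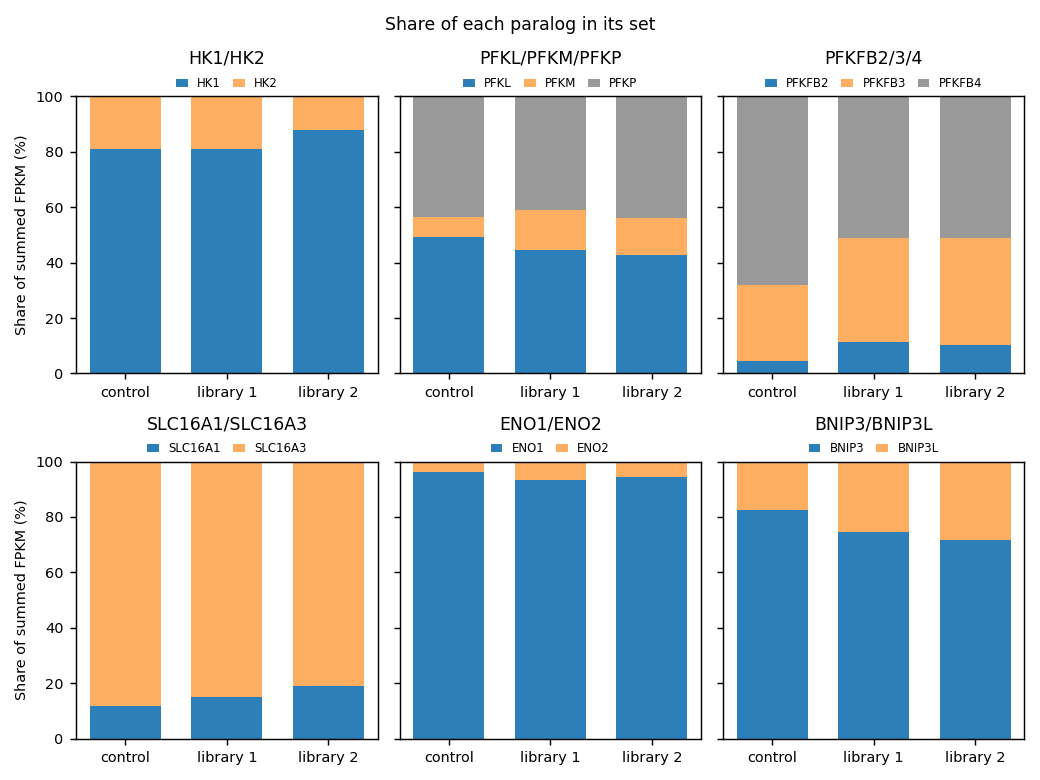
Share of each paralog in the summed FPKM of its set (%), in the control library and KMT2D shRNA libraries 1 and 2, for 6 sets of isoenzymes or paralogs. The length trend is not removed. PFKFB4 falls from 67.9% of its set in the control to 51.0% and 51.2%, PFKM rises from 7.22% to 14.7% and 13.3%, and BNIP3 falls from 82.4% to 74.6% and 71.8%.

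Shares within sets of paralogs, given without a test, show which isoform supplied the RNA. The length trend was left in these shares, and paralogs differ in transcript length. PFKFB4 has 3503 bases and PFKFB2 6347, and BNIP3 has 1535 and BNIP3L 3505. How far length enters the shares was not tested. PFKFB4 made up 67.9% of the summed PFKFB level in the control and 51.0% and 51.2% in libraries 1 and 2, while PFKFB2 made up 4.53%, 11.3% and 10.2%. SLC16A3 held 88.1% of the summed SLC16A level in the control and 84.8% and 81.2% in the labelled libraries. ENO1 remained the main enolase, at 96.4% in the control and 93.5% and 94.4% in the labelled libraries. The LDHA share of lactate dehydrogenase was 88.9% in the control and 86.0% and 88.3% in libraries 1 and 2. HK2 made up 18.9% of the hexokinase level in the control and 19.0% and 12.1% in the labelled libraries, so only library 2 differed.

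No enzyme of the pentose phosphate class passed in the fit as deposited. PGD, the second NADPH-producing dehydrogenase, measured 189, 169 and 195 CPM in library 1, library 2 and the control. TKT (transketolase), which carries carbon back to glycolysis, was at 318, 321 and 331 CPM, and RPIA, the ribose phosphate isomerase, at 21.2, 18.9 and 23.8 CPM. These 3 were lower in both labelled libraries, with fitted log2 fold changes of -0.12, -0.05 and -0.24. TALDO1 (transaldolase) was the exception, at 134 and 151 CPM against 127 CPM (log2 fold change 0.17, edgeR adjusted p = 0.504). With the length trend removed TALDO1, of 1319 bases, rose by 0.54 on the log2 scale (adjusted p = 0.0225), and the class median moved from -0.086 to 0.11. The summed share of counts of the 4 genes was 0.0672%, 0.0653% and 0.067%, within one another's counting intervals (0.065% to 0.0694%, 0.0631% to 0.0676% and 0.0649% to 0.0692%).

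The HIF subunits rose. HIF1A, the broadly expressed alpha subunit, measured 615 and 527 CPM against 393 CPM in the control (log2 fold change 0.54, SE 0.17, edgeR adjusted p = 0.0114). EPAS1 (HIF2 alpha), the alpha subunit of narrower expression, measured 91.9 and 86.1 CPM against 54.7 CPM (log2 fold change 0.70, SE 0.18, edgeR adjusted p = 0.00263). HIF1A remained the main transcript of the pair, at 90.1% of their summed FPKM in the control and 89.5% and 88.6% in the labelled libraries. Both have long transcripts, of 4079 and 5184 bases, and neither passed with the length trend removed (0.37, adjusted p = 0.125, and 0.40, adjusted p = 0.116). The oxygen sensor EGLN1 (PHD2), the main HIF prolyl hydroxylase, was at 97.3, 87.5 and 102 CPM (log2 fold change -0.14, edgeR adjusted p = 0.584). EGLN1 passed as lower with the length trend removed (-0.60, adjusted p = 0.00844). EGLN3 (PHD3), itself a HIF target, had 11, 6 and 10 counts and did not pass (log2 fold change -0.14, SE 0.78, edgeR adjusted p = 0.917). HIF activity is set largely through protein stability, which these RNA libraries do not measure.

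All 8 hypoxia targets outside glycolysis were lower than the control in both labelled libraries, and 5 of them fell (62.5%). Of all tested genes 42.8% were lower in both and 14.5% fell. The class had a median log2 fold change of -0.65, with -0.60 in library 1 and -0.67 in library 2. BNIP3, a receptor for mitophagy, measured 226 and 177 CPM against 373 CPM in the control (log2 fold change -0.89, SE 0.17, edgeR adjusted p = 5.27e-05) and passed under 8 of 11 alternatives. VEGFA, the angiogenic growth factor, measured 155 and 160.4 CPM against 244 CPM, with labelled libraries close to each other (log2 fold change -0.63, SE 0.17, edgeR adjusted p = 0.00292). ADM, the vasodilator peptide adrenomedullin, measured 22.2 and 24.6 CPM against 41.0 CPM (log2 fold change -0.81, SE 0.21, edgeR adjusted p = 0.00205). The protein disulfide isomerase P4HB, which is also the beta subunit of collagen prolyl hydroxylase, measured 1305 and 1496 CPM against 1901 CPM (log2 fold change -0.44, SE 0.15, edgeR adjusted p = 0.0197). CA9, the cell-surface carbonic anhydrase widely used as a hypoxia marker, had 8 and 7 counts against 25 (log2 fold change -1.63, SE 0.61, edgeR adjusted p = 0.0372), so its fold change rests on few reads.

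The other 3 targets were lower without passing. BNIP3L (NIX), the paralog of BNIP3, measured 178, 162 and 185 CPM in library 1, library 2 and the control, and BNIP3 made up 82.4% of the summed FPKM of the pair in the control and 74.6% and 71.8% in the labelled libraries. NDRG1, a stress-responsive gene, was abundant, at 2341, 2398 and 2708 CPM (log2 fold change -0.19, edgeR adjusted p = 0.318). ANKRD37 had 19, 15 and 29 counts. With the length trend removed VEGFA (-0.71, adjusted p = 0.00122) and BNIP3 (-0.56, adjusted p = 0.014) still passed, ADM, CA9 and P4HB did not, and the class median was -0.41. Where EGLN1 and EGLN3 were counted with the hypoxia targets and P4HB was left out, a grouping chosen after seeing the data, 4 of 9 fell.

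Set side by side, the 3 gene classes that the list was built to compare kept 1 order. The hypoxia targets had the lowest median, the glycolytic enzymes came next (-0.29) and the pentose phosphate enzymes were highest (-0.086). This order of medians held in the main setting and in all 13 alternatives, 2 of which leave out a labelled library. It is a description over 8, 17 and 4 genes that share the same 3 libraries, and the differences between classes carry no test.

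**Figure D4:**
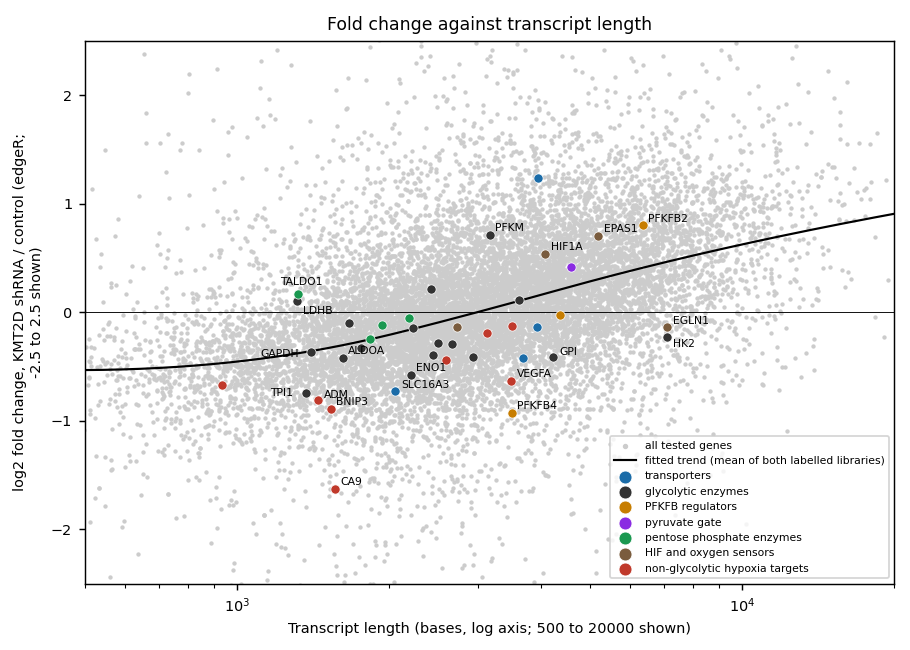
Fold change of all tested genes (grey) and of the 41 members (coloured by class) against transcript length (bases, log axis), with the fitted trend as a line. TPI1, ADM, BNIP3 and CA9 lie below the line among short transcripts, GAPDH lies on it, and HK2 and EGLN1 lie below it among long transcripts although their fold changes are near 0.

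Compared with genes of like length, the classes differed in how far they stood from their neighbours. For each member the 200 tested genes nearest in transcript length were taken, and 28 of 41 members lay below their neighbours' median. That was so for 8 of 8 hypoxia targets, 12 of 17 glycolytic enzymes and 1 of 4 pentose phosphate enzymes. The median distance was -0.39 for the hypoxia targets, -0.12 for the glycolytic enzymes and 0.12 for the pentose phosphate enzymes on the log2 scale. PFKFB4 stood at percentile 4 of its neighbours, CA9 at 5.5, BNIP3 at 8.5 and VEGFA at 9. GAPDH was at percentile 45.5 and LDHA at 48, close to the middle, while PFKM was at 88 and TALDO1 at 85.5. The members were somewhat shorter than the tested genes (median 2596 against 2962.5 bases) and richer in GC (54.9% against 49.1%). How far length itself enters their fold changes was not tested beyond these fits.

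Genes of the same pathways outside the 41 were counted from lists by the same test, for which 14.5% of all tested genes fell and 16.5% rose. Of 15 other glycolysis genes tested, 2 fell (HKDC1, a hexokinase-like gene with 3, 3 and 16 counts, and the sugar transporter SLC2A8, log2 fold change -1.08), 1 rose (the monocarboxylate transporter SLC16A7, 0.77) and 12 did not pass. Among 9 other pentose phosphate genes PGLS, the lactonase between the 2 dehydrogenases, fell from 149 CPM in the control to 59.4 and 70.9 CPM (log2 fold change -1.20, edgeR adjusted p = 3.42e-07), and PRPS2, which makes phosphoribosyl pyrophosphate, rose by 0.69 on the log2 scale (edgeR adjusted p = 0.00992). Of 13 genes of pyruvate entry into mitochondria DLAT (0.69) and PDK3 (0.54) rose and 11 did not pass. Of 13 genes of gluconeogenesis and glycogen 2 fell, among them the mitochondrial carboxykinase PCK2 (log2 fold change -1.55), and 2 rose. None of the 6 other HIF pathway genes passed. With the length trend removed HKDC1, SLC2A8, PGLS, PRPS2 and PCK2 kept their calls. In that fit SLC16A7 (0.075, edgeR adjusted p = 0.866), DLAT (0.48, adjusted p = 0.0599) and PDK3 (-0.079, adjusted p = 0.831) did not pass.

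In a longer list of hypoxia targets, of 28 tested, 9 fell and 3 rose, with a median log2 fold change of -0.27. With the length trend removed 6 fell and 3 rose. Of the 9 that fell in the main fit 5 kept their calls there, and so did all 3 that rose. Of all tested genes 14.5% fell and 16.5% rose, and with that trend removed 9.71% and 9.65%. DDIT4, an inhibitor of mTOR signalling, fell from 186 CPM to 47.2 and 47.3 CPM (log2 fold change -1.98, edgeR adjusted p = 2.52e-13). ANGPTL4, a secreted lipase inhibitor (-1.71), STC2, a secreted glycoprotein (-1.59), and TMEM45A (-1.03) fell as well, all 4 with the length trend removed too.

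The HIF core was common in the promoters of the members, as it is in those of all tested genes. ACGTG or GCGTG was searched on both strands, with overlaps counted, within 250 bases before a RefSeq start. It occurred in 28 of 35 members matched by symbol (80%), against 64.2% of 11090 tested genes. By window the core occurred in 58.1% of 62 member windows, against 54.4% of 16145 windows of tested genes. Median GC of the windows was 68.4% and 64.4%. Members that fell held it in 13 of 13 genes and in 17 of 20 windows, and members that rose in 3 of 3 genes but 3 of 10 windows, since PFKM alone has 7 annotated starts here. Members that did not pass held it in 12 of 19 genes and 16 of 32 windows. All 5 matched hypoxia targets, 14 of 17 glycolytic enzymes and 2 of 4 pentose phosphate enzymes had at least 1 core. Members differ in their number of windows, and a match says only that the letters are there. Windows for NDRG1, VEGFA, BNIP3L, SLC2A3, PFKFB2 and SLC16A1 were not among those matched.

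The calls differed in how well they withstood other processing. Among the 11 alternatives with a test, PFKFB4 passed under 9, BNIP3 under 8, and PFKM, TPI1, ENO1 and VEGFA under 7. SLC16A3 and ADM passed under 6 and EPAS1 under 5. GPI, PFKFB2 and HIF1A passed under 3, ALDOA, PGK1 and P4HB under 2, CA9 under 2 of the 9 that tested it, GAPDH under 1 and PFKL under 0.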

How the data were processed

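RNA was selected with oligo(dT) beads, reverse transcribed with random primers and sequenced on a BGISEQ-500, per the labels' protocols, which name no step that marks strand. Bowtie2, HISAT and the build hg19 are named in the submitters' processing notes; the part each played, and the counting tool, is not given in the sources used here. The authors deposited, per library, each gene's transcript length in bases, expected counts (estimated reads, not normalized) and FPKM (scaled by length and library total), per the file headers. Names came from a RefSeq table (GRCh38.p14), which matched 18214 of 18331 identifiers directly and 28 through a transcript. Expected counts were rounded and tested with edgeR 4.0.16 (default filter, TMM, quasi-likelihood F test on group, Benjamini-Hochberg over 14016 genes). The fit has 1 residual degree of freedom, so the control is assumed to vary like the labelled libraries; the biological coefficient of variation was 10.9%. A count of 3 was 0.545 to 0.591 CPM. Length and GC trends were removed as smooth offsets per labelled library (natural splines with 5 degrees of freedom). Other settings were DESeq2 1.42.0, limma 3.58.1 on log2(FPKM + 1) and log2(FPKM + 0.1), other scalings and filters, and leaving out a labelled library. Levels of different genes were compared in FPKM only. The members and lists were chosen with earlier results of these data known. Every member is named; genes of other lists are named when past the threshold, at most 4 a list, by the change in the less changed labelled library.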

Additional observations from a re-analysis of the deposited data

How the results depend on the processing

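No paired analysis was possible because the 2 labelled libraries share 1 control library. The count of all genes past the threshold, 4352, was 1897 without the filter on low counts, 2713 with the length trend removed, 1778 with length and GC trends removed, 1199 with DESeq2, and with limma 1623 on log2(FPKM + 1), 1068 on log2(FPKM + 0.1) and 0 without a filter, where 4513 had an unadjusted p under 0.05. The 14 members that fell became 7 with library totals, 7 without the filter, 9 with a mean of 5 CPM or more (37 members tested), 9, 7 and 5 with the length, GC and both trends removed, 5 with DESeq2, and 4, 0 and 0 in the 3 limma settings, where 17, 16 and 10 had an unadjusted p under 0.05. The 4 that rose became 2 without the filter, 2 with the GC trend and 2 with both trends removed, and 0 with DESeq2 and in the 3 limma settings. Of 14016 genes tested, 2033 fell and 2319 rose in the main fit, against 1396 and 1849 with library totals. With the length, GC and both trends removed 1361, 1323 and 896 fell and 1352, 1597 and 882 rose. Without the filter 849 fell and 1048 rose, with a mean of 5 CPM or more 1678 and 1957, and with DESeq2 456 and 743. Limma gave 843 and 780 on log2(FPKM + 1) and 527 and 541 on log2(FPKM + 0.1). The median of the glycolytic enzymes was -0.11, -0.21 and -0.093 with the length, GC and both trends removed, and that of the pentose phosphate enzymes 0.11, 0.027 and 0.16. The median of the hypoxia targets was -0.41, -0.55 and -0.36 under those settings, -0.54 with the stricter filter, -0.57 with limma on log2(FPKM + 1) with or without a filter, and -0.67 to -0.59 when either labelled library was left out. KMT2D reversed to -0.61 with the length trend removed and to -0.45 (adjusted p = 0.0878) with both.

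Directions of members that had not passed reversed as follows, with log2 values for the length, GC and both trends removed where given: ALDOC to 0.19, 0.028 and 0.25, TKT to 0.11, 0.12 and 0.21, PGD to 0.10 and 0.10 (length and both), LDHA to 0.0091 and RPIA to 0.0053 (length), PFKFB3 to 0.071 and LDHB to -0.029 (GC). GAPDH, which had passed, reversed to 0.059 with both trends removed. Leaving out either labelled library gave ranges of -0.63 to 0.092 for HK2, -0.15 to 0.089 for PFKFB3 and -0.49 to 0.18 for EGLN3, all above 0 without library 2, and of -0.098 to 0.28 for LDHB, below 0 without library 1. The cause of these reversals was not tested. The depth leaves CA9, EGLN3, SLC2A3 and ANKRD37 with at most 29 counts, which limits what their folds show. No library was flagged, since no group had 4 samples.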
